A study of Mus musculus with 16 samples.

Results

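Genes that macrophages of the cornea and microglia of the retina had in common, against microglia of the brain and monocytes of the bone marrow, were sought in 16 RNA-seq libraries, which are all libraries of the series. The mice were C57BL/6 adults of 8 to 10 weeks, with no treatment named. Cells were sorted as CD45+ CD11b+ CD64+ F4/80+ (cornea), CD45+ CD11b+ (retina and brain) and CD45+ CD11b+ CD115+ Ly6C+ (marrow), with 4 libraries per population. Each cornea and retina library held cells of 10 pooled mice. The description field of the brain and marrow samples speaks of retinal microglia, against their title, source and population fields, so their pool size is unknown. Corneas were digested with collagenase D at 37 °C, whereas retinas were broken up by pipetting in cold buffer, and no label gives the steps for brain and marrow. Dissociation and tissue therefore cannot be told apart.

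A gene belonged to the shared set when it met 2 conditions in a single fit of all 16 libraries. The contrast of the mean of cornea and retina against the mean of brain and marrow (called the eye contrast here) had an adjusted p under 0.05. The fitted change also had the same sign in each of the 4 cross pairs, which are cornea against brain, cornea against marrow, retina against brain and retina against marrow. Only the sign counted in a pair, so a gene can be in the set without passing in a retina pair. Of 15754 genes tested, 2889 met both conditions. Among them, 1650 were higher in the eye (10.5% of the genes tested) and 1239 lower (7.86%).

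Cornea macrophages lie among the collagen fibres and nerves of a transparent tissue without vessels, where they take up debris and release factors that guide wound repair. Retinal microglia lie between layers of neurons, where they survey synapses and clear dying cells. Both tissues belong to an immune-privileged organ. Brain microglia share their yolk sac origin with retinal microglia, and Ly6C+ monocytes of the marrow are the blood-borne precursors from which many tissue macrophages are renewed. Macrophages that sense damage switch on chemokine and cytokine genes through the transcription factors NF-kB and AP-1. Macrophages that handle lipid-rich debris raise another set, including Apoe, Gpnmb and Spp1, which is known from microglia in ageing and neurodegeneration.

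The sorted populations carried the markers of their gates at unequal levels. Ly6c2, a gene of the Ly6C antigen, had 2464 ± 141 CPM (counts per 1 M of the TMM-scaled library total; mean ± SD, n = 4 libraries, as for all such values) in marrow monocytes and at most 0.285 in the other populations. Adgre1, which encodes F4/80, had 2515 ± 106 CPM in cornea macrophages against 432 to 948 elsewhere. Fcgr1, which encodes CD64, was lowest in cornea macrophages (71.3 ± 10.2 CPM), although they were sorted on it. Csf1r, which encodes CD115, was lowest in marrow monocytes (1540 ± 91.3 CPM, against 2800 to 11975 elsewhere), although they were sorted on it. P2ry12, the purine receptor of resting microglia, had 7527 ± 1012 CPM in retina, 13785 ± 519 in brain, 70.2 ± 21.2 in cornea and 6.97 ± 1.57 in marrow. Total counts ran from 8.68 to 21.76 M (mega-counts) per library. TMM factors were 0.661 to 0.705 in cornea libraries and 1.07 to 1.25 in the other 12.

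Markers of other cells were present and differed between tissues. The summed level of 14 rod and cone genes was 852 to 8181 CPM in retinal libraries and 2.10 to 6.85 in all others, and 8 of the 14 had no count in brain. Corneal epithelial genes summed to 262 to 1730 CPM in cornea libraries and 9.86 to 23.9 in retina. Keratocyte and fibroblast genes summed to 1639 to 2952 CPM in cornea and 2.96 to 4.75 in retina. The list of Müller glia, astroglia and pigment epithelium did not follow its tissue, with 228 to 283 CPM in retina, 1957 to 3142 in cornea and 1642 to 1758 in marrow; its member Vim alone had 2324 ± 521 CPM in cornea and 1699 ± 52 in marrow. Lens crystallin genes, of which 4 of 12 were tested, did not follow the eye either. They were highest in brain (132 to 196 CPM, against 71.8 to 117 in retina, 7.24 to 12.1 in cornea and 12.3 to 21.0 in marrow). Whether these counts came from lens cells was not tested. Pigment cell genes summed to at most 11.8 CPM, in marrow. Neuronal and brain glial genes summed to 186 to 461 CPM in retina, 75.5 to 151 in cornea, 147 to 150.2 in brain and 386 to 402 in marrow. Granulocyte genes summed to 1305 to 5220 CPM in marrow and 84.0 to 433 in the rest. Red cell and platelet genes summed to 372 to 2487 CPM in marrow and 5.62 to 77.1 elsewhere. In bulk libraries, fewer cells of a type and less RNA per cell cannot be told apart.

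The sequencer lane, read from the column headers, nearly followed the comparison. Lane 2 held 7 of the 8 eye libraries (all but cornea 4) and 1 of the 8 others (marrow 1), and lane 3 held the rest. Lane is therefore a limit of every result below. Counts from a fit with lane as a second term are given with the gene lists, and the genes that pass in it are named at the end. Titles of retina 2 and 4 and of replicates 3 and 4 of brain and marrow carry ranges of numbers that differ within a population; brain 3 and marrow 3 carry the same range, and so do brain 4 and marrow 4. The labels do not say what these ranges count, or whether every library came from separate mice, so p-values measure the spread between these libraries, which may be partly technical.

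The promoters of 6 genes that rose in the eye against both other populations are shown, because they hold short DNA words known to bind NF-kB, AP-1 or PU.1, a factor that marks macrophage genes. Each is the stretch of 250 bases before a RefSeq start site, 5′ to 3′ on the gene's strand, with the matching word in capitals. Ier3 is an immediate-early gene that protects cells from TNF-induced death, and Ccrl2 is a chemokine receptor-like protein that presents chemerin. Both hold a match to the NF-kB word, which lies on the opposite strand in Ier3.
Ier3, GRCm38.p6 chr17:35821463-35821712, plus strand: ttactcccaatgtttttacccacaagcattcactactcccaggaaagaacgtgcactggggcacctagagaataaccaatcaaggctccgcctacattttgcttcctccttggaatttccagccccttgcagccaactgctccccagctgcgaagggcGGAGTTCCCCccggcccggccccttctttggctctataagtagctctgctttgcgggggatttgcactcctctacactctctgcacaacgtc
Ccrl2, GRCm38.p6 chr9:111057519-111057768, minus strand: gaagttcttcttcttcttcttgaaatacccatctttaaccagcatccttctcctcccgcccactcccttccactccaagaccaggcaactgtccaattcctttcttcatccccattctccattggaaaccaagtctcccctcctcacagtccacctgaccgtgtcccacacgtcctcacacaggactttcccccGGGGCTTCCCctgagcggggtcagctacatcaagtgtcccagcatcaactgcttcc
Srxn1 encodes sulfiredoxin, which repairs oxidised peroxiredoxins, and Itgax encodes the integrin CD11c. Both hold the AP-1 word TGANTCA.
Srxn1, GRCm38.p6 chr2:152105274-152105523, plus strand: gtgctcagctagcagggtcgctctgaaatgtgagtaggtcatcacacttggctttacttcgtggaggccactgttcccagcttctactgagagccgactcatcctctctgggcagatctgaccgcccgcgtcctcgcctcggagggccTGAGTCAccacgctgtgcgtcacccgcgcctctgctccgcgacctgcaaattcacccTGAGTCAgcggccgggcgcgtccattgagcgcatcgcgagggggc
Itgax, GRCm38.p6 chr7:128129300-128129549, plus strand: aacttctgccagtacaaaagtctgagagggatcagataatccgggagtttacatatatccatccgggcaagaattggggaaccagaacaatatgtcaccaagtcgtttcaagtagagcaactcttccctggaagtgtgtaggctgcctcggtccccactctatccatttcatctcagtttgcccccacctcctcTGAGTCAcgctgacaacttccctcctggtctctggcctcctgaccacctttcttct
Spp1 encodes osteopontin, a secreted ligand of integrins, and Cd72 encodes an inhibitory lectin-like receptor. Both hold the PU.1 word GAGGAAGT, which lies on the opposite strand in Cd72. Spp1 holds a match to the interferon-stimulated response element as well, on the opposite strand.
Spp1, GRCm38.p6 chr5:104434861-104435110, plus strand: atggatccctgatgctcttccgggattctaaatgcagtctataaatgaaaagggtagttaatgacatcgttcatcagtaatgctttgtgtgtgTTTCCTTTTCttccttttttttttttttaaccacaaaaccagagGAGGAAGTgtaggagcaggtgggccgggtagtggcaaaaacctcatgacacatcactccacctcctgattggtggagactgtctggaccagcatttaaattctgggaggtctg
Cd72, GRCm38.p6 chr4:43454627-43454876, minus strand: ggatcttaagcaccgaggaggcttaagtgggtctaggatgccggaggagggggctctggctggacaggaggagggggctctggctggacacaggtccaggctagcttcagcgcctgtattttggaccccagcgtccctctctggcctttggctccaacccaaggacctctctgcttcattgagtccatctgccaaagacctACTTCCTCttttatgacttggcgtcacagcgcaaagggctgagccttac

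These words were counted on either strand of RefSeq promoters of 300 bases (250 before and 50 after a start site, GRCm38.p6), of which the table held 240 for 174 of the 225 genes called higher in all 4 pairs. A match to NF-kB was present in 9.58% of those promoters, in 5.13% of those of all tested genes and in 4.51% of all 32851 in the table. The AP-1 word was present in 9.58%, 5.36% and 7.81%. PU.1 was present in 4.58%, 3.35% and 3.20%, and the interferon-stimulated response element in 3.33%, 3.17% and 3.44%. The cyclic AMP word TGACGTCA was present in 3.75%, 2.99% and 1.79%, the KLF word GGGTGNGGC in 3.33%, 6.84% and 5.13%, and the serum response word in 1.25%, 1.30% and 1.63%. These shares are descriptions without a test, near-identical copies such as Bcl2a1a, Bcl2a1b and Bcl2a1d count separately, and a match is not evidence of binding.

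The eye contrast by itself was called for 4405 genes higher (28.0%) and 3564 lower (22.6%), by the quasi-likelihood test of edgeR (Benjamini-Hochberg adjusted). Higher genes were 55.3% of those calls with TMM and 37.7% when libraries were scaled to total counts only. The median change over all genes was 0.07 on the log2 scale with TMM, 0.11 with median-of-ratios factors and -0.20 with total counts. Cornea against brain called 5318 genes higher and 5208 lower. Retina against brain called 1095 higher and 567 lower, fewer than any other cross pair. The 3 pairs with cornea or marrow each called between 4269 and 5318 genes in a direction.

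A stricter subset passed the test in each of the 4 cross pairs. It held 225 genes higher in the eye (1.43% of those tested) and 57 lower (0.362%). Without brain 4 the counts were 149 and 24, and the lower count was 25 without brain 3, 31 without retina 4, 35 without brain 1 and 36 without retina 2. The genes higher in all 4 pairs were far apart from the other populations, with a median of 2.03 on the log2 scale in their smallest pair and 4.24 in the eye contrast. The genes lower in all 4 pairs moved less, with medians of 0.53 and -1.08. All 8 eye libraries lay above all 8 others in 209 genes (1.33%) and below them in 97 (0.616%), and the second count was 156 without retina 1, 166 without retina 3 and 149 without brain 2. In 43 of the 225 genes, brain and marrow each had at most 3 counts over their 4 libraries.

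**Figure D1:**
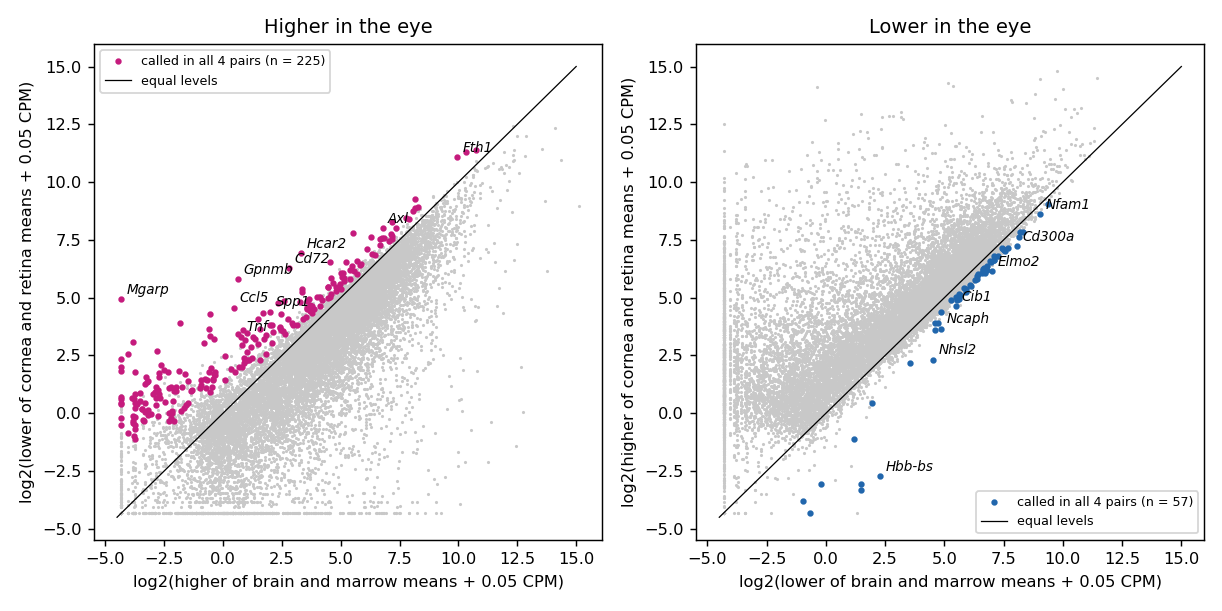
Each point is 1 of 15754 genes. On the left, the lower of the cornea and retina means is plotted against the higher of the brain and marrow means (log2 of TMM-scaled CPM plus 0.05); on the right, the higher eye mean against the lower of the other means. The 225 genes called higher in all 4 pairs (left, pink) lie far above the line of equal levels at low levels and nearer to it at high levels, and most of the 57 lower genes (right, blue) lie just under it.

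Among the 15 genes with the widest gap between the eye and the other populations, Mgarp came first. Mgarp, which ties mitochondria to the transport machinery of the cell, had no count in any brain or marrow library. It had 104, 64.1, 105 and 79.7 CPM in the cornea libraries (replicates 1 to 4, as in all such lists) and 33.7, 24.1, 6.25 and 58.6 in retina. Against a floor of 3 counts over a population, Mgarp was at least 492-fold higher in retina than in brain and at least 1316-fold higher in cornea than in brain.

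Samd11, a nuclear protein with a SAM domain that is known from photoreceptors, had 15.3, 19.9, 21.2 and 7.91 CPM in cornea and 10.4, 8.40, 6.57 and 34.5 in retina. It had no count in brain and at most 0.452 CPM in marrow. Cornea and retina had close means for it, 16.1 ± 6.01 and 15.0 ± 13.1 CPM. Eno2, the neuronal form of enolase, had 56.4 ± 16.3 CPM in cornea, 12.3 ± 5.93 in retina, 0.616 ± 0.875 in brain and 0 in marrow. Kif1a, a motor that carries synaptic vesicle precursors along axons, had 12.3 ± 6.01, 8.28 ± 7.48, 0.513 ± 0.699 and 0.325 ± 0.346 CPM in the same order, which holds wherever 4 means stand without names. Map1b, which binds microtubules in growing axons, had 12.1 ± 4.35 CPM in cornea and 59.9 ± 54.7 in retina, against 1.73 ± 1.50 in brain and 0 in marrow.

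For 6 of the 15 genes, the retinal libraries followed the order of the rod gene Gnat1, whose product relays light in rods. Gnat1 had 818, 347, 153 and 1104 CPM in retina 1 to 4, and Map1b had 57.1, 32.6, 12.6 and 137 CPM. Mgarp, Samd11, Eno2, Kif1a and Optn had the same order of libraries. Of the 225 genes higher in all 4 pairs, 56 (24.9%) had this order, as did 7.27% of all tested genes. The order of the corneal epithelial gene Krt12 in cornea was found in 7.56% of the 225 and 5.91% of all tested genes. Among the 15 genes with the widest gap, Gpnmb, Optn and Nes had the Krt12 order. The part of retinal neurons or corneal epithelium in these levels was not tested.

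Other genes with wide gaps did not follow Gnat1 in the retina. Gpnmb, a membrane glycoprotein of lysosomes in pigment cells and lipid-laden macrophages, had 124, 86.2, 93.4 and 64.7 CPM in cornea and 74.7, 56.9, 59.8 and 29.1 in retina. Brain libraries had 1.11, 0, 0 and 0.653 CPM, and marrow libraries 1.99, 1.40, 1.83 and 0.852. The lowest eye library was thus 29.1 CPM and the highest other library 1.99 CPM. The eye contrast of Gpnmb was 6.36 ± 0.37 (log2 fold change ± SE; edgeR adjusted p = 3.24e-10), and with lane as a term it was 5.92 (adjusted p = 6.5e-08).

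Hcar2, a receptor for niacin and ketone bodies on myeloid cells, had 218, 204, 279.7 and 197 CPM in cornea and 108, 99.7, 151 and 123 in retina. Brain libraries ran from 6.25 to 14.0 CPM and marrow libraries from 0 to 1.67. All 4 pairs passed, with the smallest change of 3.58 in retina against brain (adjusted p = 2.69e-05). Cd72 had 171, 152, 199 and 212 CPM in cornea and 63.9, 68.2, 107 and 68.8 in retina, against 5.73 to 7.94 in brain. In marrow, Cd72 had 2.03 CPM in replicate 1, the library of lane 2, and no count in the other 3.

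The widest gaps also held Lox, Nes, Optn and Arl4d. Lox, lysyl oxidase, which cross-links collagen and elastin, had 22.1 ± 10.7 CPM in cornea, 10.0 ± 3.18 in retina, 0.632 ± 1.07 in brain and 0 in marrow. Nes, the intermediate filament nestin, had 39.3 ± 11.4, 17.0 ± 4.59, 2.75 ± 1.11 and 0.0113 ± 0.0226 CPM. Optn, the autophagy receptor optineurin, had 248 ± 31.6 CPM in cornea and 20.1 ± 11.7 in retina, against 3.24 ± 1.40 and 2.03 ± 1.57. Arl4d, a small GTPase of the plasma membrane, was low everywhere, with 5.97 ± 0.367 CPM in cornea, 5.53 ± 2.38 in retina, 1.00 ± 0.463 in brain and 0.169 ± 0.339 in marrow.

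**Figure D2:**
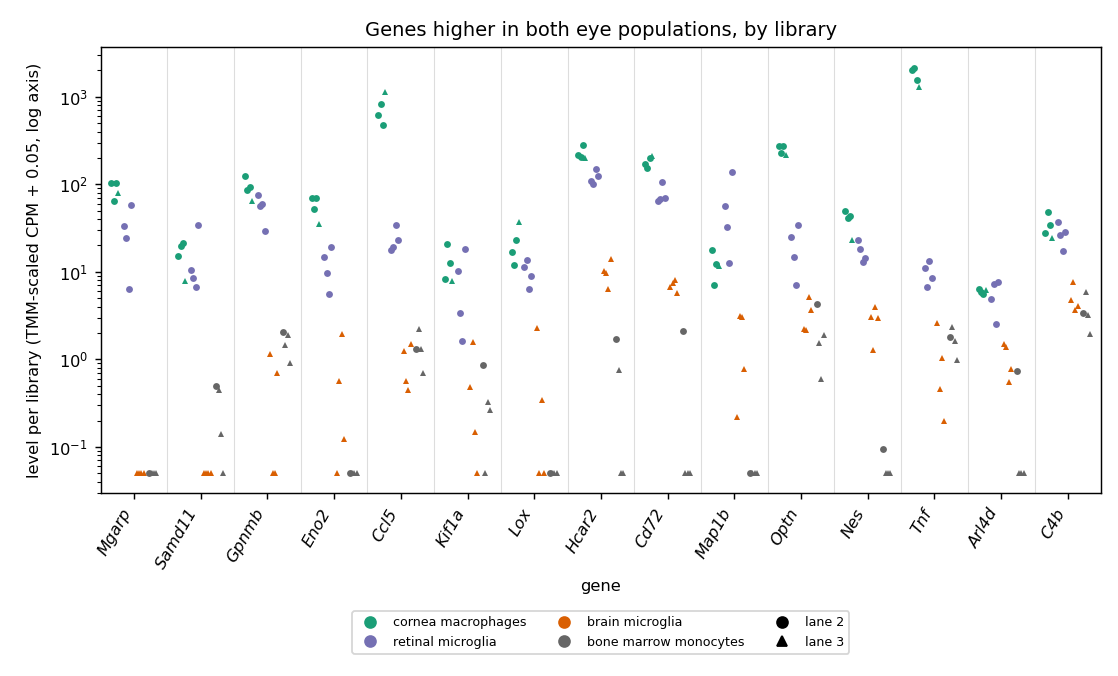
The level of the 15 genes with the widest gap is plotted for each library (TMM-scaled CPM plus 0.05, log axis; circles lane 2, triangles lane 3). In each gene all 8 eye libraries lie above all 8 others, which was a condition for choosing it. Points at the bottom are libraries without a count, as in all brain and marrow libraries for Mgarp.

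Inflammatory cytokines and chemokines had the highest share of members in the shared set among the lists of cell programmes and pathways. Of 20 tested, 13 were higher in the shared set (65%, against 10.5% of all genes) and none was lower. In all 4 pairs, 6 passed (1.43% of all genes). The median eye contrast was 6.65 against 0.07 over all genes. The 6 were Tnf, Ccl2, Ccl3, Ccl4, Ccl5 and Ccl12. The other members of the shared set had only the sign in retina against brain (edgeR adjusted p of 0.0538 or more). For those members the set gives no evidence of a difference between retina and brain. Il1b, Cxcl3 and Ptgs2 also missed in retina against marrow (adjusted p of 0.296, 0.313 and 0.655). Cxcl3 and Ptgs2 had 0.0223 and 0.174 CPM in retina, near 0. With lane added, 12 of the 20 were higher in the shared set, 11 of them in common with the main fit, and 5 passed in all 4 pairs. Cornea exceeded retina in each of the 6.

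Tnf, the cytokine that opens the inflammatory cascade, had 2047, 2155, 1543 and 1307 CPM in cornea. Retina had 11.0, 6.74, 13.4 and 8.45 CPM, brain 2.57, 0.407, 0.992 and 0.145, and marrow 1.76, 2.29, 1.55 and 0.923. Every retinal library was thus above every brain and marrow library, at levels far under those of cornea. The change was 3.26 in retina against brain (adjusted p = 0.000169) and 10.74 in cornea against brain (adjusted p = 1.25e-11).

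The CC chemokines, which draw monocytes and T cells into tissue, showed the same order in part. Ccl5 had 625, 823, 478 and 1143 CPM in cornea and 17.8, 19.4, 33.8 and 23 in retina, and at most 2.19 CPM in any other library. Ccl12, a ligand of CCR2, had 868 ± 440.1 CPM in cornea, 223 ± 71.9 in retina, 45.6 ± 8.58 in brain and 0.135 ± 0.106 in marrow. Ccl2 had 1752 ± 661, 41.5 ± 23.1, 10.3 ± 2.61 and 7.77 ± 2.44 CPM. Ccl3 had 3387 ± 315, 94.5 ± 25.5, 23.5 ± 0.680 and 17.6 ± 10.3 CPM, and Ccl4 had 4374 ± 682, 57.6 ± 13.2, 23.7 ± 5.56 and 2.13 ± 0.224.

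These genes lie in 2 stretches of chromosome 11 (GENCODE vM21, GRCm38). Ccl2 (chr11:82035571-82037453) and Ccl12 (chr11:82101845-82103400) flank Ccl7, which was in the shared set without passing in all 4 pairs, and Ccl8 next to them was not in it. Ccl5 (chr11:83525778-83530518), Ccl3 (chr11:83647844-83649355) and Ccl4 (chr11:83662584-83664683) form the other stretch. Chromosome 11 held 11.6% of the genes higher in all 4 pairs that matched the annotation, and 8.28% of all tested genes. Several further cytokine genes were in the shared set with little in the retina: Il1b had 1453 ± 577 CPM in cornea, 3.18 ± 0.780 in retina, 1.44 ± 0.321 in brain and 2.26 ± 1.14 in marrow.

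NF-kB feedback genes were in the shared set for 5 of 20 members and immediate-early genes for 7 of 19, none lower, against 10.5% of all genes. In all 4 pairs, 3 and 2 members passed (1.43% of all genes). The other members of the shared set had only the sign in retina against brain (edgeR adjusted p of 0.148 or more). Their place in the set is therefore no evidence of a difference between retina and brain. Of these, Fosl1 and Zfp36 also missed in retina against marrow (adjusted p of 0.489 and 0.823). Nfkbiz, a nuclear cofactor of NF-kB, had 1311 ± 74.9 CPM in cornea, 32.6 ± 6.45 in retina, 14.9 ± 4.12 in brain and 17.1 ± 4.93 in marrow. Relb, a subunit of NF-kB, had 456 ± 45.6, 35.6 ± 9.27, 24.0 ± 3.82 and 24.2 ± 1.72 CPM. Bcl2a1d, a survival factor whose reads may be shared with the near-identical Bcl2a1a and Bcl2a1b, had 754 ± 95.6, 23.2 ± 3.64, 11.7 ± 0.980 and 1.82 ± 1.18 CPM. When lane was added, no member of the 2 lists passed in all 4 pairs, while 5 and 7 were in the shared set (4 and 6 in common with the main fit).

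Junb, a subunit of AP-1, had 1757, 2172, 1905 and 3115 CPM in cornea and 369.6, 728, 495 and 895 in retina. Brain had 295, 369, 194 and 295 CPM, and marrow 239.5, 215, 118 and 101. The lowest retinal library (369.6 CPM) was close to the highest brain library (369 CPM), so the separation rests on a narrow margin there. Ier3 had 860.4 ± 190.1 CPM in cornea, 37.9 ± 11.9 in retina, 10.1 ± 3.68 in brain and 3.87 ± 1.16 in marrow. Immediate-early genes are known to respond to tissue dissociation, and the part of the warm corneal digest was not tested.

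Srxn1 was the single oxidative stress gene called in all 4 pairs, of 15 tested (1.43% of all genes). It did not pass there with lane added. Of the 15, 4 were in the shared set (26.7%, against 10.5% of all genes) and 1 with lane added. The Srxn1 level was 2977 ± 307 CPM in cornea, 12.7 ± 1.79 in retina, 5.04 ± 2.18 in brain and 5.36 ± 2.66 in marrow. Of 15 heat shock genes, 3 were in the shared set (20%, against 10.5% of all genes) and none passed in all 4 pairs. That 3 became 0 with lane added, 1 without retina 3, and 1 without the 3 libraries whose titles lack a letter b (cornea 1, retina 1 and retina 3). Of 24 interferon-response genes, 1 was in the shared set (Bst2, 4.17% against 10.5% of all genes) and 0 with lane added. A higher eye contrast was called in 16 of the 24, and in 28.0% of all genes.

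Genes of disease-associated microglia, the programme seen around amyloid plaques and dying neurons, were in the shared set for 9 of 20 members, against 10.5% of all genes, with none lower and a median eye contrast of 2.49. In all 4 pairs 6 passed (1.43% of all genes): Apoe, Axl, Gpnmb, Itgax, Spp1 and Igf1. When lane was added, 9 were higher in the shared set (8 in common with the main fit), 1 was lower, and 5 passed in all 4 pairs. Apoe, the lipid carrier of glia and macrophages, had 22228, 27964, 22195 and 18784 CPM in cornea and 2779.8, 1871, 3616 and 1857 in retina. Brain had 552, 475, 522 and 545 CPM, and marrow 1749, 1272, 1174 and 914. Retina exceeded brain by 2.27 on the log2 scale (adjusted p = 4.62e-06) and marrow by 0.99 (adjusted p = 0.000924).

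Axl, a receptor for apoptotic cells of the TAM family, had 1149, 1310.3, 1141 and 1331 CPM in cornea and 354, 234, 208 and 224 in retina. Brain had 25.9, 13.4, 11.0 and 26.7 CPM, and marrow 116, 101, 121 and 99.7. Retinal and brain microglia differed in Axl by a wide gap, with no overlap. Spp1 had 1164 ± 191 CPM in cornea, 20.9 ± 9.63 in retina, 2.62 ± 0.735 in brain and 4.00 ± 1.49 in marrow. Igf1, a growth factor that supports neurons and epithelia, had 192 ± 39.0, 10.9 ± 3.48, 1.67 ± 1.16 and 1.99 ± 0.203 CPM. Itgax had 65.3 ± 4.82, 30.2 ± 14.5, 12.5 ± 2.28 and 0.873 ± 0.594 CPM.

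Complement genes were in the shared set for 6 of 15 members, with none lower, and 4 passed in all 4 pairs (10.5% and 1.43% of all genes). When lane was added, the same 6 were in it and 2 passed in all 4 pairs, C4b and C2. C4b, a central component of the classical pathway that tags synapses and debris, had 27.4, 47.6, 34.3 and 24.4 CPM in cornea and 36.8, 26.6, 17.3 and 28.5 in retina. Brain had 4.72, 7.62, 3.57 and 3.99 CPM, and marrow 3.34, 5.78, 3.20 and 1.92. No eye library overlapped the others, as the choice of the genes with the widest gap required. Cornea minus retina was 0.29 on the log2 scale (adjusted p = 0.426). C5ar1, the receptor of the anaphylatoxin C5a, had 3181 ± 534 CPM in cornea, 464 ± 44.0 in retina, 289 ± 39.3 in brain and 27.7 ± 6.72 in marrow. C2, a protease of the same pathway, had 11.8 ± 3.95, 1.31 ± 1.17, 0.0643 ± 0.129 and 0.308 ± 0.313 CPM.

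Markers of border and tissue macrophages, the cells of meninges and connective tissue, were in the shared set for 6 of 17 members, and 3 passed in all 4 pairs (10.5% and 1.43% of all genes). The same 6 were in it with lane added, and Pf4 and Ms4a7 passed in all 4 pairs. Pf4, a chemokine of platelets and border macrophages, had 938, 926, 894 and 767 CPM in cornea and 1.66, 2.10, 3.39 and 1.25 in retina. Brain had 0.0992 to 0.290 CPM and marrow 0.142 to 0.904. Every retinal library exceeded every brain and marrow library, at levels of a few CPM. Ms4a7, a tetraspan protein of macrophages, had 1508 ± 63.9 CPM in cornea, 17.0 ± 3.08 in retina, 0.438 ± 0.485 in brain and 6.69 ± 1.02 in marrow. Cd38, an NAD-degrading enzyme, had 52.2 ± 14.0, 3.09 ± 1.51, 0 and 0.740 ± 0.885 CPM, at least 42-fold higher in retina than in brain.

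Matrix and repair genes were in the shared set for 10 of 25 members (10.5% of all genes). Of these, Spp1 and Igf1 passed in all 4 pairs (1.43% of all genes), also with lane added. The count in the shared set was 8 with lane added, 7 of them in common, and 5 without the 3 libraries whose titles lack a letter b. Mmp14, a membrane protease, had 551 ± 61.6 CPM in cornea, 47.5 ± 13.4 in retina, 46.7 ± 7.05 in brain and 0.641 ± 0.443 in marrow, so that retina and brain had nearly the same level. Lipid and cholesterol genes were higher for 6 of 22 members and lower for 2, or 27.3% and 9.09% against 10.5% and 7.86% of all genes. The same genes were in the set with lane added, and the lower count was 1 without retina 3, without marrow 4 or with total counts. Ch25h, which makes 25-hydroxycholesterol, had 173 ± 31.5 CPM in cornea, 1.38 ± 0.753 in retina, 0.180 ± 0.161 in brain and 0 in marrow. Abcg1, a cholesterol exporter, was lower in the shared set without passing in all 4 pairs, with 67.9 ± 7.23 and 53.9 ± 7.11 CPM in the eye against 236 ± 31.7 in brain and 79.6 ± 16.0 in marrow.

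Of 10 co-stimulation and checkpoint genes, 3 were in the shared set (30%, against 10.5% of all genes), and the same 3 with lane added. Of 14 Toll-like receptor genes, 4 were higher and 2 lower (28.6% and 14.3%, against 10.5% and 7.86% of all genes). With lane added, 3 and 1 of these stayed. Of 13 chemoattractant receptors, 2 were higher with and without lane (15.4%, against 10.5% of all genes). Cd274, which encodes PD-L1, the ligand that restrains T cells, had 324 ± 98.7 CPM in cornea, 28.9 ± 8.61 in retina, 11.8 ± 1.40 in brain and 7.33 ± 1.72 in marrow. Tlr2, the receptor for bacterial lipopeptides, had 1669 ± 174, 335 ± 40.8, 236 ± 26.0 and 189.7 ± 15.9 CPM. Ccrl2 had 1084 ± 70.1, 29.6 ± 5.26, 18.5 ± 1.09 and 8.39 ± 2.23 CPM. Mfge8, which bridges apoptotic cells to integrins, had 52.6 ± 6.53, 69.2 ± 3.31, 35.0 ± 8.27 and 21.7 ± 3.83 CPM, and the difference between cornea and retina did not pass (adjusted p = 0.0507).

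By the lower of their eye means, Fth1, Apoe and Ctsz were the most abundant of the shared genes that separated all libraries. Fth1, the heavy chain of ferritin, had 32486, 29833, 29786 and 22868 CPM in cornea and 2008, 1949, 2975 and 1722 in retina. Brain had 929 to 1046 CPM and marrow 647 to 1069. Best1, a chloride channel of the retinal pigment epithelium that lies next to Fth1 on chromosome 19, had 14.9 ± 3.42, 7.83 ± 2.63, 2.75 ± 0.687 and 0.969 ± 0.562 CPM in the order cornea, retina, brain and marrow. Whether reads of Fth1 reach the Best1 entry was not tested. Ctsz, a lysosomal carboxypeptidase, had 2551, 2519.6, 2596 and 3018 CPM in cornea and 2254, 2408, 4059 and 2045 in retina, against 1586 to 1822 in brain and 558 to 627 in marrow. Its cornea and retina means, 2671 and 2691 CPM, were close.

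Ddx5, an RNA helicase, had 619 ± 143, 437 ± 60.7, 269.6 ± 34.0 and 167 ± 9.65 CPM. Pmp22, a tetraspan protein of myelin, and Slc11a1, the metal transporter of phagosomes, were high in the eye without passing in retina against brain. Pmp22 had 1975 ± 176, 649.6 ± 118, 482 ± 28.0 and 0.158 ± 0.316 CPM (retina against brain, adjusted p = 0.341). Slc11a1 had 931 ± 159.6, 451 ± 76.7, 329.8 ± 40.2 and 184 ± 12.3 CPM (adjusted p = 0.0588). H2-Q6 is a non-classical MHC class I gene with close paralogs. It was the single member of 15 in its list that was in the shared set (6.67%, against 10.5% of all genes). It passed in all 4 pairs, with 369 ± 80.5, 43.8 ± 22.1, 5.97 ± 1.15 and 21.9 ± 6.94 CPM.

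Some lists held no shared gene or none in the higher direction. None of 19 homeostatic microglia genes and none of 12 MHC class II genes was in the shared set, in either direction. Of all genes, 10.5% were higher and 7.86% lower in it. Without marrow 2, 1 MHC class II gene was higher. In the full fit a higher eye contrast was called in 11 and 9 members of the 2 lists, and in 28.0% of all genes. H2-Aa had 2785 ± 442 CPM in cornea, 26.2 ± 12.4 in retina, 1.37 ± 1.22 in brain and 61.7 ± 20.8 in marrow. Its retinal mean lay between those of brain and marrow, as it did for H2-Ab1 and H2-Eb1. In H2-DMa, H2-DMb1 and H2-Ob retina had the highest mean. Of 16 classical monocyte genes, none was higher and 4 were lower (25%, against 7.86% of all genes). All 4 were near 0 outside marrow, as for Chil3 with 5573 ± 1303 CPM in marrow and at most 0.787 elsewhere. None of the 4 passed in all 4 pairs. Ly6c2, which is 1 of them, had only the sign against brain (edgeR adjusted p of 0.625 for cornea and 0.928 for retina). Its place in the set is thus no evidence of a difference between eye and brain. KLF and NR4A factors had no shared member among 11, against 10.5% higher and 7.86% lower of all genes. The higher count was 1 without retina 1, retina 3, brain 1 or brain 2. It was also 1 with no filter or a minimum count of 50. Without the 3 libraries whose titles lack a letter b, 1 was higher and 1 lower. The lower count was also 1 without retina 3 or brain 1.

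**Figure D3:**
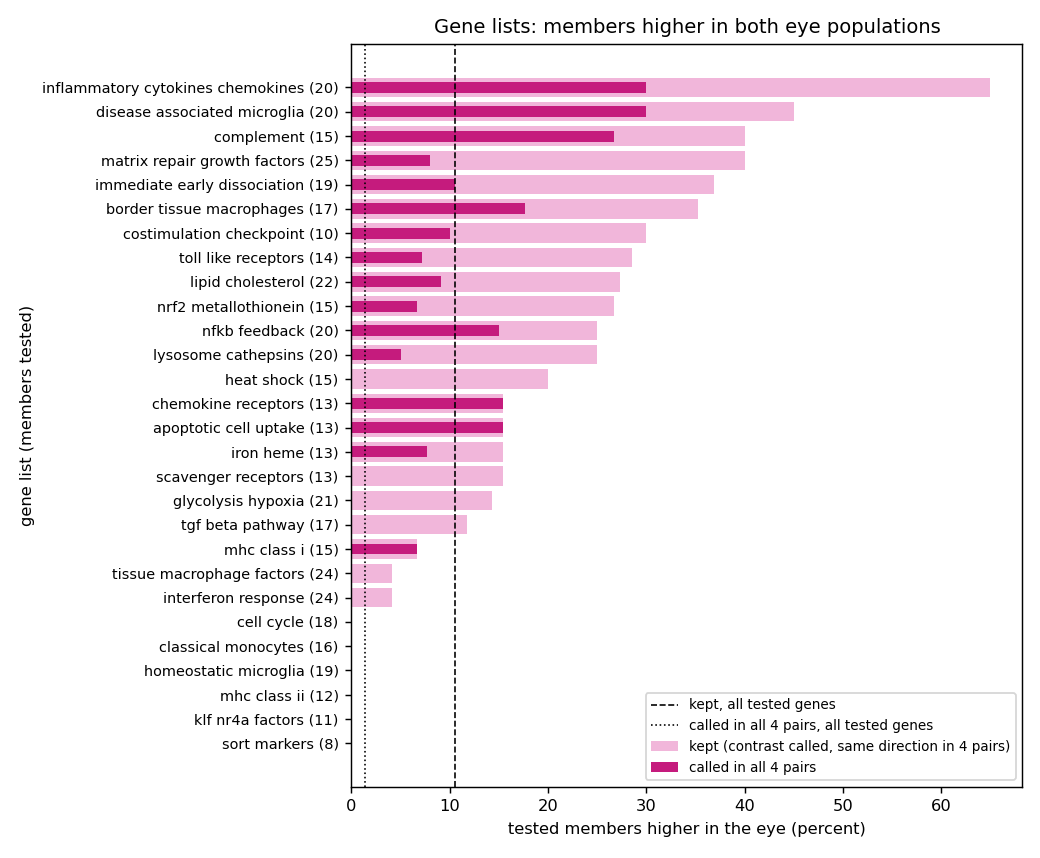
For each list of sort markers, cell programmes, pathways and factors (lists of other cells are not drawn), the bar gives the percent of tested members in the shared set and higher in the eye, and the narrow dark bar the percent called higher in all 4 pairs; the dashed and dotted lines give the same for all 15754 genes (10.5% and 1.43%). Inflammatory cytokines and chemokines are at the top, with 13 of 20 members in the shared set, and the 6 lists at the bottom have none.

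Among markers of other eye cells, Dkk3 and Best1 of the glia and pigment epithelium list and Clu of the corneal epithelium list passed in all 4 pairs. Dkk3, a secreted Wnt modulator, had 12.0, 0.256, 1.38 and 1.93 CPM in cornea and 13.3, 4.3, 0.7 and 23.1 in retina, with no count in brain or marrow. Cornea 1 stood above the other cornea libraries, and the retinal libraries had the order of Gnat1. Clu, the chaperone clusterin, had 7.64 ± 1.92, 11.9 ± 4.98, 1.68 ± 1.58 and 0.0249 ± 0.0498 CPM. Of the 225 genes, 190 were in no list, 18 had the symbol of a predicted gene, and 200 of the 216 matched to GENCODE were protein-coding.

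Among genes lower in the eye, Nhsl2 had the widest gap. The lower genes with the widest gap were likewise chosen among shared genes without overlap of eye and other libraries. Nhsl2, a relative of the actin regulator NHS, had 1.47, 0.511, 1.23 and 5.58 CPM in cornea and 7.34, 5.62, 2.75 and 4.07 in retina. Brain had 24.9, 15.5, 24.0 and 26.6 CPM, and marrow 158, 164, 146 and 209. The highest eye library, 7.34 CPM, was under the lowest other library, 15.5 CPM. The eye contrast was -4.21 ± 0.33 (log2 fold change ± SE; edgeR adjusted p = 1.28e-08).

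Ncaph, a condensin subunit that compacts mitotic chromosomes, had 8.75 ± 1.48 CPM in cornea, 12.6 ± 1.57 in retina, 29.3 ± 3.51 in brain and 60.8 ± 11.3 in marrow. Rrm1, a subunit of the enzyme that makes deoxynucleotides, had 28.8 ± 3.43, 32.6 ± 2.77, 45.5 ± 3.79 and 159 ± 28.2 CPM, and was the single member lower in the shared set among 18 cell cycle genes (5.56%, against 7.86% of all genes). Elmo2, which activates Rac during engulfment, had 42.6, 48.1, 50.0 and 36.4 CPM in cornea and 68.9, 74.5, 61.0 and 78.9 in retina. Brain had 141, 139, 99.4 and 135 CPM, and marrow 436, 439, 458 and 473, without overlap with the eye.

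Cd300a, an inhibitory receptor for phosphatidylserine, was among both the clearest and the most abundant lower genes. Cornea had 150.1, 170.3, 149.8 and 108 CPM and retina 137, 143, 191 and 132, against 255 to 281 in brain and 378 to 419.6 in marrow. The eye libraries of both tissues thus fell in a single range. Cib1, which binds calcium and integrins, had 23.5 ± 3.33, 24.5 ± 4.51, 45.0 ± 1.38 and 77.5 ± 6.65 CPM. Nfam1, a signalling receptor of myeloid cells, had 143 ± 12.2, 394 ± 2.26, 527 ± 20.9 and 961 ± 35.4 CPM. Rxra, a nuclear receptor for retinoids, had 30.0 ± 1.75, 47.4 ± 7.41, 72.3 ± 12.0 and 67.1 ± 14.4 CPM.

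Fut8, Sqrdl and Ide were lower by smaller amounts. Fut8, which adds core fucose to glycans, had 23.3 ± 2.79, 37.5 ± 5.09, 63.8 ± 3.72 and 60.9 ± 8.87 CPM. Sqrdl, which oxidises sulfide in mitochondria, had 38.0 ± 8.83, 66.6 ± 17.2, 106 ± 7.38 and 159 ± 13.6 CPM. Ide, which degrades insulin and amyloid peptides, had 25.8 ± 7.42, 45.0 ± 6.01, 69.5 ± 9.44 and 71.2 ± 8.04 CPM. All 3 passed in each pair, with the smallest changes in retina (adjusted p of 0.00215 for Fut8, 0.0201 for Sqrdl and 0.0356 for Ide against brain). C1rl, a protease related to C1r, had 2.80 ± 0.683, 14.7 ± 3.13, 25.3 ± 6.47 and 24.6 ± 1.51 CPM. Plod3, a collagen-modifying enzyme, had 54.1 ± 12.0, 196 ± 20.0, 288 ± 32.8 and 293 ± 27.3 CPM.

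Lman2, a cargo lectin of the secretory pathway, Ehd4, an endosomal ATPase, and Ppp2r5e, a subunit of a protein phosphatase, were lower with eye contrasts of -0.61, -0.47 and -0.76. With lane added, the adjusted p of Ehd4 was 0.0699. Fry, Pecam1, Arrdc3, Nlrp1a and Arhgef6 separated all 8 eye libraries from the others without passing in each pair. Pecam1, the adhesion molecule CD31, had 1.74 ± 1.89, 7.65 ± 2.56, 41.4 ± 5.30 and 15.2 ± 3.47 CPM, and missed in retina against marrow (adjusted p = 0.138). Tifab, an adaptor of TRAF signalling, had 6.91 ± 3.58 CPM in cornea and 232 ± 8.67 in retina, close to 264 ± 16.0 in brain.

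Mbnl1, a splicing regulator, and Fam49b, which restrains Rac1, were abundant lower genes that did not pass in retina against brain (adjusted p of 0.326 and 0.11). Mbnl1 had 754 ± 183, 1074 ± 138, 1325 ± 121 and 1631 ± 411 CPM, and Fam49b 217 ± 11.2, 532 ± 45.9, 647 ± 20.2 and 855 ± 106. With lane as a term, the eye contrast of Mbnl1 was -0.39 (adjusted p = 0.0806). Haemoglobin genes (Hbb-bs, Hbb-bt and Hba-a1, with close copies that may share reads) were lower in all 4 pairs. Hbb-bs had 1075, 704, 187 and 150.0 CPM in marrow, 0.772, 0.102, 18.1 and 0.290 in brain, and at most 0.332 in any eye library. The level in brain thus rested on replicate 3, and red cell genes moved with it, whose part in the result was not tested.

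**Figure D4:**
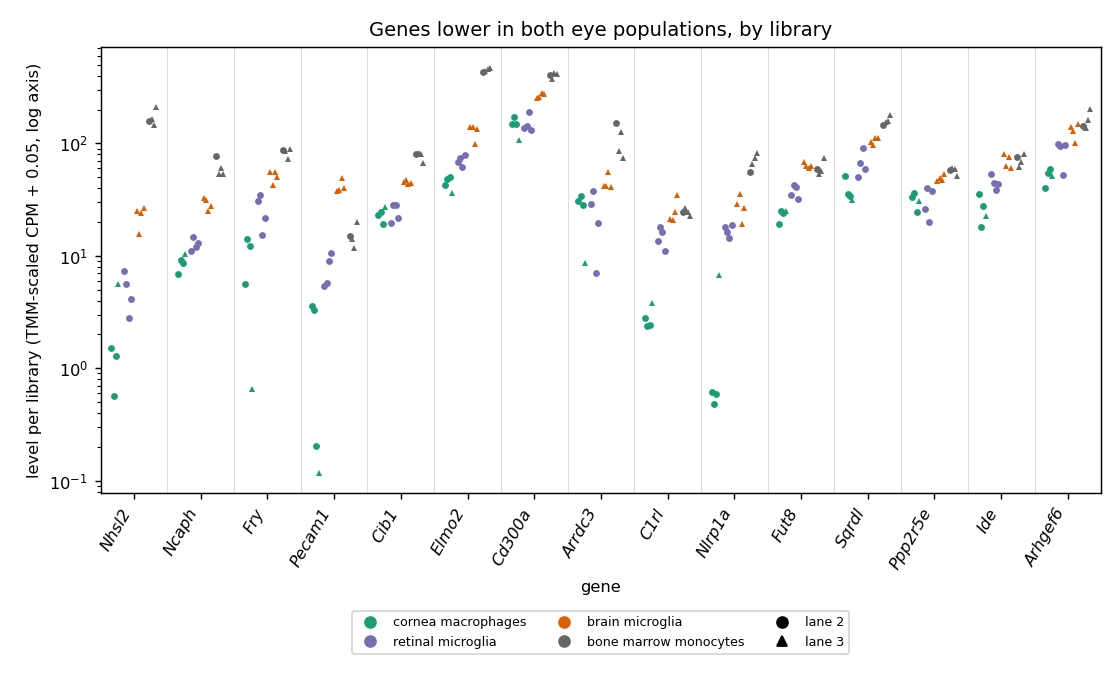
The level of the 15 genes with the widest gap in the lower direction is plotted for each library (TMM-scaled CPM plus 0.05, log axis; circles lane 2, triangles lane 3). All 8 eye libraries lie under all 8 others in each gene, which was a condition for choosing it. The margin is 18.8 against 19 CPM in Nlrp1a and 7.34 against 15.5 CPM in Nhsl2.

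Cornea and retina differed in level for many of the genes they shared. Of the 225 genes higher in all 4 pairs, 107 were also higher in cornea than in retina and 15 higher in retina than in cornea (edgeR, adjusted p under 0.05). Of the 57 lower genes, 1 was higher in cornea and 23 higher in retina. Median levels of the 225 were 22.1 CPM in cornea, 10.0 in retina, 1.26 in brain and 0.706 in marrow. For the 57, they were 36.4, 54.1, 82.7 and 121 CPM. In the median, then, retina lay between cornea and the other populations in either direction.

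Adding lane as a term moved the number of genes called in all 4 pairs more than the eye contrast. The lane term itself was called in 6 of 15754 genes, and in 0 of the 225 and 0 of the 57. It rests on cornea 4 and marrow 1, so few calls do not show that lane had no effect. The median eye contrast was 3.71 with lane and 4.24 without for the 225, and -1.17 and -1.08 for the 57. With lane as a term, 55 genes were higher (0.349%) and 13 lower (0.0825%) in all 4 pairs, of which 50 and 8 were also called without it. The shared set then held 1290 genes higher (8.19%) and 1383 lower (8.78%), with 1046 and 836 in common with the main fit. Of the 225 genes, 214 kept a called eye contrast with lane as a term, and all 225 kept its sign. Of the 57, 52 kept the call and all 57 the sign. Both sets had been chosen from the same libraries, so the kept calls and signs are no separate check. The 15 genes with the widest gap in each direction all kept a called eye contrast, although Nlrp1a left the shared set. Of the higher genes, 8 passed in all 4 pairs (Mgarp, Samd11, Gpnmb, Ccl5, Hcar2, Cd72, Tnf and C4b). Of the lower genes, 3 passed in all 4 pairs (Ncaph, Elmo2 and Cd300a). So did Apoe, Axl, Spp1, Igf1, Ccl2, Ccl4, Ccl12, Cd274, C2, Pf4, Ms4a7 and Hbb-bs. Junb, Fth1, Ctsz, C5ar1, Srxn1, H2-Q6, Tlr2, Ccrl2, Rrm1 and Rxra passed in all 4 pairs without lane and missed in at least 1 pair with lane. The same held for Ccl3, Itgax, Nfkbiz, Relb, Bcl2a1d, Ier3, Cd38, Ch25h, Mfge8 and Ddx5. It also held for Dkk3, Best1, Clu, Nfam1, Plod3, Lman2, Ehd4, Hbb-bt and Hba-a1.

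Comparisons within a lane used fewer populations, since lane 2 held no brain library and lane 3 no retinal library. In lane 2 (cornea 1 to 3 and retina 1 to 4 against marrow 1), all 225 genes had the same sign as in the full fit. In lane 3 (cornea 4 against brain 1 to 4 and marrow 2 to 4), 219 did. The 225 genes had been chosen from these same libraries, so these signs were largely set by the choice and are no separate check. Marrow 1 was the highest marrow library in 36.4% of the 225 genes and in 28.1% of all tested genes. Cornea 4 was the lowest cornea library in 37.3% of the 225 and 35.2% of all tested genes. Retina against brain has no library pair in the same lane, and there lane and tissue cannot be told apart beyond what the term takes from cornea 4 and marrow 1.

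**Figure D5:**
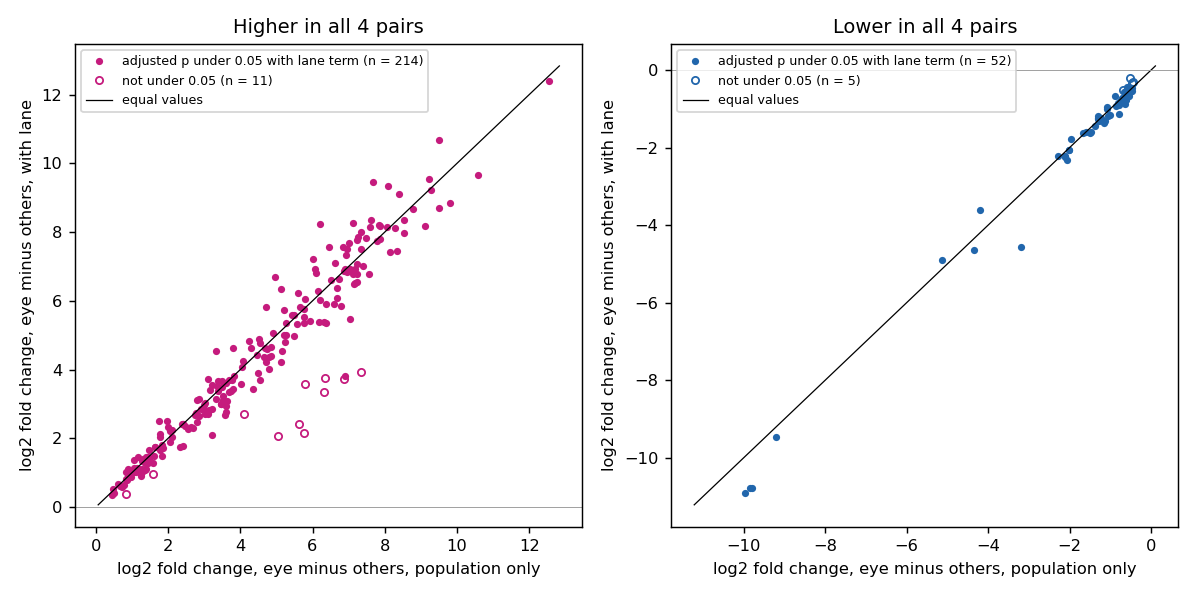
The log2 fold change of the eye contrast with lane as a term is plotted against that with population only, for the 225 genes higher (left) and 57 lower (right) in all 4 pairs. Filled points keep an adjusted p under 0.05 with lane (214 and 52), open points do not (11 and 5), and no point crosses 0. Both gene sets were chosen from the same libraries.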

How the data were processed

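The authors deposited unnormalized whole-number counts of reads per gene in 16 libraries. Gene length, the other column, is in bases per the file headers (unit other) and was not used in any test. The submitters' processing notes name CASAVA 1.8.2, Subread, featureCounts, limma and GRCm38.p4. The annotation, the strand setting and the counting of multi-mapping reads were not given in the sources used here, so overlapping, antisense and near-identical genes are uncertain. The extraction text describes brain tissue of another mouse line, so the library kit is uncertain too.

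Of 45664 entries, 15754 passed filterByExpr by population (minimum count 10). All were fitted in edgeR 4.0.16 (R 4.3.3) with TMM factors and population as the only term, tested by the quasi-likelihood F test, and adjusted by Benjamini-Hochberg over all tested genes. The SE was derived from the fold change and the F statistic of its test. Levels are TMM-scaled CPM. Folds against a population at 0 use a floor of 3 counts over its 4 libraries and cover counting error only. The 24 pairs of libraries within populations differed beyond sampling noise (chi-square per degree of freedom 11.29 to 95.5). Symbols of 27 entries read as dates and took at most 0.223% of a library's counts. DESeq2 1.42.0, other scalings, filters, lane terms and left-out libraries were alternatives. The procedure was tested on simulated data.

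Named genes were the 15 per direction with the largest smallest-pair change among shared genes without overlap and with a mean of at least 5 CPM on the higher side, the 8 per direction with the highest levels, the sort markers, and list members called in all 4 pairs. Further list members named as examples (P2ry12, Vim, Il1b, Cxcl3, Ptgs2, Fosl1, Zfp36, Mmp14, Abcg1, H2-Aa, H2-Ab1, H2-Eb1, H2-DMa, H2-DMb1, H2-Ob, Chil3, Bst2, Ccl7 and Ccl8) were chosen after their values were seen. The comparison, the 40 gene lists and their members were chosen with earlier results of these data known.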

Additional observations from a re-analysis of the deposited data

Results flagged for a closer look

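Among 336 sets of 4 libraries (a gene within a population), 30 had a library whose distance from the nearest other exceeded Dixon's 95% limit; chance flags about 1 in 20 such sets. Among genes higher in the eye, retina 4 stood apart for Samd11 (34.5 CPM) and retina 3 for Cd72 (107 CPM). Cornea 4 stood apart for Ctsz (3018 CPM) and C2 (17.7 CPM), cornea 2 for Pmp22 (1713 CPM) and cornea 1 for Dkk3 (12.0 CPM). Marrow 1, the marrow library of lane 2, stood above the other marrow libraries for Cd72 (2.03 CPM), Nes (0.0452 CPM), Arl4d (0.678 CPM), Pmp22 (0.633 CPM), C5ar1 (37.7 CPM) and Ddx5 (182 CPM). Brain 1 stood apart for Lox (2.23 CPM) and C2 (0.257 CPM), and marrow 2 for Clu (0.0997 CPM).

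Among genes lower in the eye, brain 3 stood apart for Hbb-bs (18.1 CPM), Hbb-bt (10.0 CPM), Hba-a1 (10.0 CPM), Arrdc3 (55.8 CPM) and Elmo2 (99.4 CPM). Cornea 4 stood apart for Nlrp1a (6.64 CPM) and Hbb-bt (0.199 CPM), retina 3 for Arhgef6 (52.1 CPM) and retina 1 for Hbb-bs (0.0789 CPM). Marrow 4 stood apart for Cib1 (67.6 CPM) and Mbnl1 (2242 CPM). Among sort markers, retina 3 stood apart for Ptprc (433 CPM), marrow 4 for Adgre1 (615 CPM), and cornea 2 (0.256 CPM) and retina 1 (0.0789 CPM) for Ly6c1.

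The difference between cornea and retina was tested itself in the genes called in all 4 pairs. In the higher direction, 107 genes were higher in cornea and 15 higher in retina, and in the lower direction 1 was higher in cornea and 23 higher in retina.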

How the results depend on the processing

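No paired analysis was possible because eye and other libraries share no replicate number that the labels give. A shared range of numbers in the titles ties brain 3 to marrow 3 and brain 4 to marrow 4, which lie on the same side of the comparison. Counts below are higher, then lower, unless named.

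At a fold of at least 2, the eye contrast counted 2835 and 1289 genes, the shared set 492 lower, and all 4 pairs 32 lower. Total counts in place of TMM gave 5449 lower genes in the eye contrast, and no filter 25 lower in all 4 pairs. With lane as a term, 55 and 13 passed in all 4 pairs, and the cause was not tested. Lane 2 alone gave 2593 higher genes in the eye contrast, 2393 lower in the shared set, 1390 and 1233 in all pairs it can form, and 3000 and 3504 without overlap. Lane 3 alone gave 3805 and 4030 in the shared set, 2692 and 2955 in all pairs it can form, and 4355 and 4427 without overlap. Both use fewer populations and pairs. Without the 3 libraries whose titles lack the letter b (cornea 1, retina 1 and retina 3), 30 were lower in all 4 pairs, and 415 and 274 did not overlap, with fewer libraries to separate.

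Leaving out each library in turn gave 4151 to 4432 and 3342 to 3645 genes in the eye contrast, and 1527 to 1649 and 1185 to 1280 in the shared set. All 4 pairs gave 149 to 256 and 24 to 82. The lowest, 149 and 24, came without brain 4; the lower direction also moved by over 1.5 times without brain 1 (35), brain 3 (25), retina 2 (36) and retina 4 (31). Genes without overlap numbered 210 to 311 and 101 to 166, the lower ones 156 without retina 1, 166 without retina 3 and 149 without brain 2.

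Of 2100 values of named genes under these alternatives, 2076 kept direction and side of the threshold, 15 lost the call, 4 gained it and 5 changed sign, all 5 in sort markers: Csf1r with total counts (-0.11) and lane 3 alone (-0.83), Fcgr1 (0.36) and Cx3cr1 (0.89) in lane 2 alone, and Ptprc in lane 3 alone (0.007). Leaving out a single library ended no named gene's eye contrast call. DESeq2 called 290 and 84 genes in all 4 pairs. Genes at a few counts, such as C2 and Cd38 outside cornea, are limited by depth.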
